A study of Mus musculus with 22 samples.

Results

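The core of the mammalian circadian clock was followed through 10 genes in the RNA of mouse hepatoblastoma, of tumors after the loss of YAP1, of hbHep mice and of FAH liver. The genes were chosen by name: Clock and Npas2, which encode activators, Per1, Per2, Per3 and Cry1, which encode repressors of those activators, Nr1d1 and Nr1d2, which encode the REV-ERB nuclear receptors, Dbp, an output of the clock, and Ciart, a further repressor. These are 10 of 36555 genes in the RNA table, and all 10 passed the filter that kept 17958 genes for testing. The values are abundances, scaled reads per base of transcript after rescaling between libraries, so levels may be set side by side between genes. A fold change is a difference of log2(abundance + 1).

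The clock is a loop of transcription. CLOCK, or its relative NPAS2, pairs with BMAL1, the product of Arntl, binds E-boxes and switches on the Per, Cry, Nr1d, Dbp and Ciart genes. PER, CRY and CIART proteins then hold the pair back, and the REV-ERB receptors repress Arntl, Npas2 and Clock, so that in mouse liver Arntl and Npas2 peak at the opposite phase of the day from Dbp, Nr1d1 and the Per genes. Levels of these genes in a liver sample therefore depend on the time of day at which it was taken, and feeding, glucocorticoids and stress also act on some of them, Per1 in particular.

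The YAP1on group was 4 hepatoblastoma tumors on doxycycline, and the day 6 group was 4 tumors off doxycycline for 6 days. Both carried the strain label B6N.FVB(Cg) with the transgene Tg(CAG-rtTA3)4288Slowe/J, in which the CAG promoter, active in most cell types, drives the doxycycline-dependent activator rtTA3. The hbHep group was 3 mice with the genotype FAH Delta Exon 5 at days 121, 114 and 117, named mice 1, 2 and 3 here, each with 2 technical libraries that were averaged. hbHep are, by the title of the study, hepatocyte-like cells derived from tumor cells after YAP1 inhibition. The FAH liver group was 3 mice with the same FAH Delta Exon 5 genotype, called WT FAH DeltaExon 5 and kept on NTBC, the drug that keeps mice without Fah alive. These samples are labelled both as liver and as hepatocytes, and their extraction was from tissue. The labels give no NTBC status for the hbHep mice, no share of host cells in their livers and no time of day for any sample. They give 1 mouse code for the 4 YAP1on tumors and 1 for the 4 day 6 tumors. Tumors of a group thus shared a mouse, its genotype and its hour of death. P-values between the tumor groups measure the spread between tumors and not between mice. Mouse, hour and treatment cannot be told apart between the tumor groups. In tests of hbHep or FAH liver against tumors, the tumor side is also 1 mouse and 1 hour, with its tumors counted as replicates. The spread shared by all tests includes that between tumors of 1 mouse, so those p-values do not rest on independent animals alone. The tumors also differed from the other groups in strain label and in the Y-linked gene Ddx3y, which lay between 4.85 and 29.5 in tumors and between 1693 and 3440 in the other samples.

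Yap1 itself was 5309 to 10806 in the YAP1on tumors and 932 to 1353 in the other 10 samples. Hepatocyte markers were present in every sample, and the sum of 8 of them ran from 210193 to 364166 in YAP1on tumors, from 517302 to 655346 in day 6 tumors, from 394632 to 613400 in hbHep and from 1059380 to 1304650 in FAH liver. Summed levels of 5 cholangiocyte markers ran the other way, with 28723 to 37833 among YAP1on tumors and 639 to 713 in FAH liver. Summed immune markers were also lower in FAH liver: 5 T and B cell markers summed to 2516 to 2976 in YAP1on tumors and 402 to 422 in FAH liver, and 5 macrophage markers to 7112 to 10369 and 2094 to 3665. These are whole pieces of tissue, so fewer cells that express a gene and less RNA of it per cell cannot be told apart, and the part of cell makeup in the clock gene differences was not tested.

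RefSeq promoters of GRCm38.p6, 250 bases before to 50 after the gene start, were available for 9 of the 10 genes. The 4 shown here are those with a perfect E-box or a D-box, the element bound by DBP and its relatives, and the motifs are in capitals. The searched letters were CACGTG for the E-box, CACGTT on either strand (AACGTG on the other) for its variant, TTATGTAA or TTACGTAA for the D-box, TAGGTCA or TGGGTCA for the core of the ROR and REV-ERB element, and TGACGTCA for the cAMP response element. Both strands were searched, and no 2 of these motifs overlapped in the windows printed. Each sequence is read 5′ to 3′ on the strand of the gene.
Ciart, chr3:95882179-95882478, minus strand, GRCm38.p6, 3 E-boxes: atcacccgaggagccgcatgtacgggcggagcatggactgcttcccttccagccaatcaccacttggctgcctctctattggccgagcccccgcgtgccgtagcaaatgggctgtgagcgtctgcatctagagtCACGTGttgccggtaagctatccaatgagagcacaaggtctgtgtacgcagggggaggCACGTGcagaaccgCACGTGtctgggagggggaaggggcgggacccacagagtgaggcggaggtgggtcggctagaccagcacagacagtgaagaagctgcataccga
Cry1, chr10:85185005-85185304, minus strand, GRCm38.p6, 1 E-box and 1 E-box variant: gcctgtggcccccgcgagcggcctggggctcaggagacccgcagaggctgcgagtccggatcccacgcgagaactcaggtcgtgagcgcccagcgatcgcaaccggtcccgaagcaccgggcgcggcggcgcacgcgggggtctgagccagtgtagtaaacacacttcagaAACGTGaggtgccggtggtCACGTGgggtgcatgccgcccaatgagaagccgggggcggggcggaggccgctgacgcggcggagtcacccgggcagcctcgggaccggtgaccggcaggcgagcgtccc
Per1, chr11:69098699-69098998, plus strand, GRCm38.p6, 1 E-box: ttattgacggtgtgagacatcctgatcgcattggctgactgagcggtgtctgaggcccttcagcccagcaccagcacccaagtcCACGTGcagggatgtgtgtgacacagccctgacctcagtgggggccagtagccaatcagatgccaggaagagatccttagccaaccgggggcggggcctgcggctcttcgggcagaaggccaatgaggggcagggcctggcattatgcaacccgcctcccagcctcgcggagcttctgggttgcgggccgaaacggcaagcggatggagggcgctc
Per3, chr4:151044616-151044915, minus strand, GRCm38.p6, 2 D-boxes: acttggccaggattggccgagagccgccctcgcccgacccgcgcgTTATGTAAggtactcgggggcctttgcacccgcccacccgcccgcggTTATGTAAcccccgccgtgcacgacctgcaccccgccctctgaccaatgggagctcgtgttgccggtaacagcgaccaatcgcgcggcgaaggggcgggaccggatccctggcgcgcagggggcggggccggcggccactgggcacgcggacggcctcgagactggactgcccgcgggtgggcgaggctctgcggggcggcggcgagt
The perfect E-box stood in the promoters of 3 of the 9 genes, against 7.15% of 32851 promoter windows. Ciart held it at positions -116, -58 and -44 from its start. A gene was counted if any of its windows held the motif, while the background counts single windows. Clock had 3 windows, and Per1 had 2, of which 1 held the E-box, so the shares are not like for like. The variant stood in 2 of 9, Cry1 and Nr1d1, against 4.68% of windows, and the D-box in Per3 only, at -205 and -158, against 1.06%. The ROR and REV-ERB core, found in 6.45% of windows, and the cAMP response element, found in 1.79%, were in none of the 9. A match is a description of the letters in these windows and not a test of binding.

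Open chromatin was mapped in 1 ATAC library each of YAP1on tumor, of days 14, 33 and 64 without YAP1 and of liver labelled WT. In each of the 5 libraries all 9 genes with a RefSeq promoter had an interval of open chromatin within 500 bases of a gene start. Per2 had no entry among those promoters and was not examined. Of 27025 genes 53.7% had such an interval in YAP1on tumor, 55.2% at day 14, 53.4% at day 33, 54.0% at day 64 and 53.1% in liver. Among the 12468 genes that were also tested in RNA the shares were 84.7%, 85.6%, 84.3%, 84.5% and 84.3%, so an open start was the usual state of a gene expressed here. Within 100 bases of the start, 7 of the 9 had an interval in YAP1on tumor and 9 of 9 in each of the other libraries. Intervals of the YAP1on list were shorter, with a mean of 23.7 bases against 66.4 to 76.6 in the other lists, so their coverage was not compared. With 1 library per condition there is no test.

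Between groups, the clearest pattern was that FAH liver had more Dbp, Ciart, Per2, Per3 and Cry1 and less Npas2 and Nr1d1 than both tumor groups. By limma with adjustment over all genes, 8 of the 10 genes differed between FAH liver and YAP1on tumors, against 68.0% of all genes tested; 5 were higher (33.3% of all genes) and 3 lower (34.6%). Against day 6 tumors 8 of 10 also differed, against 62.6% of all genes, again 5 higher (30.9%) and 3 lower (31.8%). Both shares are near the background, since most genes tested differ between tumor and liver. These comparisons share the FAH samples. Clock genes whose samples did not overlap between groups numbered 8 of 10 for FAH liver against YAP1on tumors (64.7% of all genes) and 9 of 10 against day 6 tumors (62.3%).

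Fewer clock genes passed where hbHep or only tumors were compared. From YAP1on to day 6 tumors 1 of 10 passed, Per1, against 23.7% of all genes (10.9% lower), although the samples of 6 of 10 did not overlap, against 32.0% of all genes. Between hbHep and YAP1on tumors 3 of 10 passed, against 55.2% of all genes, with 2 higher (28.7%) and 1 lower (26.5%), and 2 did not overlap (55.4%). Between hbHep and day 6 tumors 5 of 10 passed, against 45.8%, with 4 higher (24.1%) and 1 lower (21.7%), and 1 did not overlap (51.5%). Between hbHep and FAH liver 4 of 10 passed, against 37.0%, with 2 higher (20.0%) and 2 lower (17.0%), and 3 did not overlap (43.3%). These counts rest on a spread shared by all groups, and hbHep mouse 2, described below, widened that spread for most of the clock genes. Mouse 2 was singled out by its levels of these same genes. Leaving it out keeps only hbHep mice 1 and 3, which were alike in them. Results without it, here and below, show its weight and are no separate evidence. Without that mouse the counts were 6 of 10 for day 6 against YAP1on tumors (26.1% of all genes), 7 for hbHep against YAP1on tumors (52.7%), 8 for FAH liver against YAP1on tumors (69.2%), 7 for hbHep against day 6 tumors (42.1%), 8 for FAH liver against day 6 tumors (64.2%) and 4 for hbHep against FAH liver (32.6%).

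**Figure D1:**
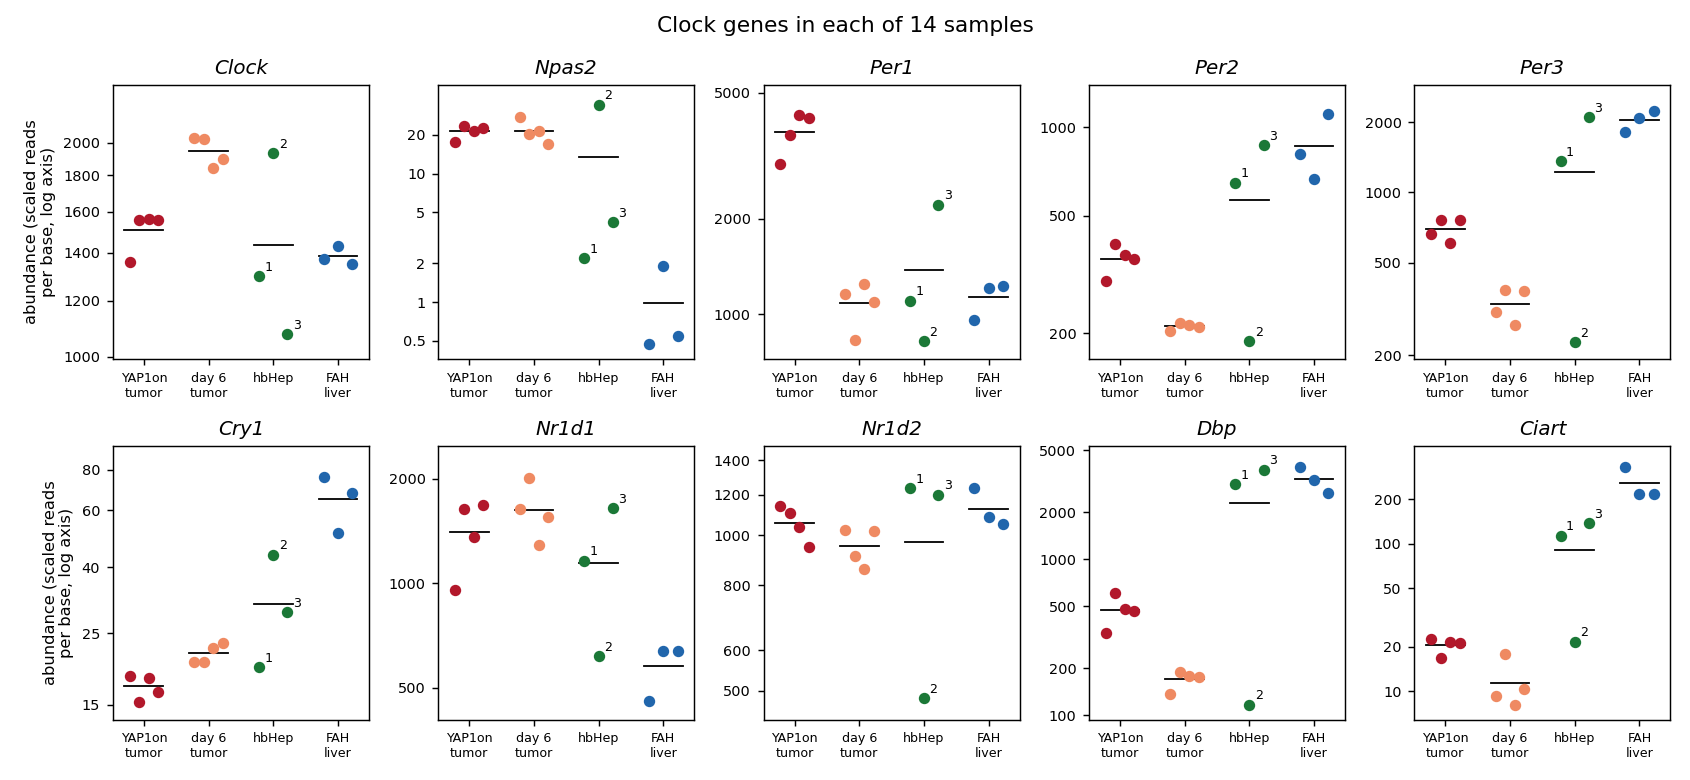
Abundance (scaled reads per base, log axis) of the 10 clock genes in 14 samples, 1 point per sample with a line at the group mean and the hbHep mice numbered. hbHep mouse 2 lies at 117 for Dbp while mice 1 and 3 lie at 3027 and 3751, and Per1 is at 2981 to 4237 in the 4 YAP1on tumors and at 2219 or less elsewhere.

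Clock (ENSMUSG00000029238, chr5:76209868-76305603) encodes the partner of BMAL1 that is present through the day. Its abundance was 1361, 1556, 1563 and 1556 in the YAP1on tumors, 2032, 2025, 1846 and 1899 in the day 6 tumors, 1300, 1932 and 1076 in hbHep mice 1, 2 and 3, and 1373, 1432 and 1351 in FAH liver. All 4 day 6 tumors were above all YAP1on tumors and all FAH livers, and of the hbHep mice mouse 2 lay among the day 6 tumors. The log2 fold change was -0.48 (SE 0.15, limma adjusted p = 0.0160) for hbHep against day 6 tumors and -0.49 (SE 0.15, adjusted p = 0.01003) for FAH liver against day 6 tumors. It was 0.37 (SE 0.14, adjusted p = 0.0670) for day 6 against YAP1on tumors, which does not pass, and passes without hbHep mouse 2 (SE 0.09, adjusted p = 0.00725).

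Npas2 (ENSMUSG00000026077, chr1:39193702-39363240), the relative of Clock, was near 20 in both tumor groups and near 0 in FAH liver. The YAP1on tumors had 17.7, 23.4, 21.4 and 22.6, the day 6 tumors 27.7, 20.2, 21.3 and 16.8, the hbHep mice 2.20, 34.3 and 4.18, and the FAH livers 0.468, 1.92 and 0.547. Both tumor groups overlapped each other, every FAH liver was below every other sample, and hbHep mouse 2 had the highest value of the 14 samples. Npas2 was lower in FAH liver than in YAP1on tumors (log2 fold change -3.56, SE 0.60, limma adjusted p = 7.65e-05) and was 2.16 higher in hbHep than in FAH liver (SE 0.64, adjusted p = 0.0153). The technical libraries of hbHep mouse 3 differed for Npas2, at 8.07 and 0.288, so its low level there is imprecise. With the second library of each hbHep mouse alone, the difference from FAH liver was 1.48 (SE 0.82, adjusted p = 0.175) and did not pass.

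Per1 (ENSMUSG00000020893, chr11:69095108-69109965), a PER repressor that also answers to acute signals, set the YAP1on tumors apart. It was 2981, 3668, 4237 and 4161 in the YAP1on tumors, 1162, 833, 1244 and 1090 in the day 6 tumors, 1103, 824 and 2219 in hbHep, and 961, 1214 and 1231 in FAH liver. The 4 YAP1on tumors were above the other 10 samples, and the other 3 groups overlapped. Per1 fell from YAP1on to day 6 tumors by 1.80 on the log2 scale, 3.48-fold (SE 0.24, limma adjusted p = 4.53e-05), and was 1.56 lower in hbHep (log2 fold change -1.56, SE 0.25, adjusted p = 0.000105) and 1.72 lower in FAH liver (-1.72, SE 0.25, adjusted p = 2.3e-05) than in YAP1on tumors. Per1 kept its call without hbHep mouse 2 in all 3 comparisons. Of the 10 glucocorticoid response genes listed beside the clock genes, 5 changed from YAP1on to day 6 tumors, against 23.7% of all genes: Fkbp5 (-0.64), Tsc22d3 (-0.78), Sgk1 (-0.75) and Dusp1 (-0.64) fell and Tat rose (0.78), all on the log2 scale. Their part in the change of Per1 was not tested.

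Per2 (ENSMUSG00000055866, chr1:91415977-91459351) and Per3 (ENSMUSG00000028957, chr4:150997018-151044707), the other PER genes, were highest in FAH liver by group mean, unlike Per1. Per2 was 300, 401, 370 and 358 in YAP1on tumors, 203, 217, 214 and 209 in day 6 tumors, 647, 188 and 867 in hbHep, and 808, 666 and 1106 in FAH liver. Per3 was 666, 761, 606 and 759 in YAP1on tumors, 306, 381, 270 and 376 in day 6 tumors, 1360, 227 and 2100 in hbHep, and 1820, 2088 and 2240 in FAH liver. For both genes all FAH livers were above all YAP1on tumors, and those above all day 6 tumors. hbHep mouse 3 lay within the FAH range and mouse 2 below every day 6 tumor. From YAP1on tumors to FAH liver Per2 rose by 1.24 on the log2 scale (SE 0.36, limma adjusted p = 0.00619) and Per3 by 1.55 (SE 0.49, adjusted p = 0.0109). From day 6 tumors to FAH liver the differences were 1.99 (SE 0.36, adjusted p = 0.000188) and 2.63 (SE 0.49, adjusted p = 0.000267). Both genes were lower at day 6 than in YAP1on tumors but did not pass with all samples in the model. The differences were -0.75 for Per2 (SE 0.33, adjusted p = 0.118) and -1.07 for Per3 (SE 0.45, adjusted p = 0.103). Both passed without hbHep mouse 2 (adjusted p = 0.00174 and 9.33e-05). They also passed with only the 2 tumor groups in the model (adjusted p = 0.00057 and 0.000339). Per3, but not Per2, passed without hbHep mouse 3 as well (adjusted p = 0.0449).
The log2 ratio of Per1 to Per2 was between 3.19 and 3.53 in the YAP1on tumors, between 1.93 and 2.54 in the day 6 tumors, 0.77, 2.13 and 1.35 in hbHep mice 1, 2 and 3, and between 0.15 and 0.87 in FAH liver. Per1 thus exceeded Per2 most in the YAP1on tumors, although all 3 PER genes had lower means at day 6 than in YAP1on tumors and ranked the hbHep mice alike, mouse 3 highest and mouse 2 lowest.

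Cry1 (ENSMUSG00000020038, chr10:85131700-85185054), the partner of PER in repression, was low in tumors and highest in FAH liver. It was 18.5, 15.4, 18.2 and 16.5 in YAP1on tumors, 20.4, 20.4, 22.6 and 23.4 in day 6 tumors, 19.7, 43.7 and 29.1 in hbHep, and 76.3, 50.9 and 67.9 in FAH liver. Every FAH liver was above every other sample. Cry1 was 1.85 higher on the log2 scale in FAH liver than in YAP1on tumors (SE 0.26, limma adjusted p = 1.18e-05), 1.52 higher than in day 6 tumors (SE 0.26, adjusted p = 0.000106), and lower in hbHep than in FAH liver (log2 fold change -1.11, SE 0.27, adjusted p = 0.00534). The rise from YAP1on tumors to hbHep, 0.74 (SE 0.26, adjusted p = 0.0224), did not pass without hbHep mouse 2. Cry1 differs from the other repressors in that mouse 2 was the highest hbHep mouse and not the lowest.

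Nr1d1 (ENSMUSG00000020889, chr11:98767932-98775377) encodes REV-ERB alpha, and like Dbp it is switched on through E-boxes. It was 958, 1636, 1365 and 1676 in YAP1on tumors, 1633, 2012, 1290 and 1552 in day 6 tumors, 1164, 618 and 1646 in hbHep, and 458, 639 and 639 in FAH liver. FAH livers were below all tumors, and hbHep mouse 2 lay within the FAH range. Nr1d1 was lower in FAH liver than in YAP1on tumors (log2 fold change -1.27, SE 0.28, limma adjusted p = 0.000805) and than in day 6 tumors (-1.48, SE 0.28, adjusted p = 0.000256), and 0.89 higher in hbHep than in FAH liver (SE 0.29, adjusted p = 0.0279). Dbp and Nr1d1 thus had opposite signs in FAH liver against either tumor group, while in the hbHep mice both were lowest in mouse 2.

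Nr1d2 (ENSMUSG00000021775, chr14:18204056-18239106) encodes REV-ERB beta and varied least between groups. It was 1139, 1106, 1040 and 948 in YAP1on tumors, 1023, 913, 863 and 1020 in day 6 tumors, 1235, 484 and 1200 in hbHep, and 1238, 1088 and 1053 in FAH liver. The 13 samples other than hbHep mouse 2 lay between 863 and 1238, and mouse 2 was alone below them. No comparison of Nr1d2 passed in the 14 samples. Without mouse 2 the difference between hbHep and day 6 tumors turned from -0.09 to 0.35 on the log2 scale (SE 0.12, limma adjusted p = 0.0279).

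Dbp (ENSMUSG00000059824, chr7:45705100-45710203) encodes a transcription factor that carries the rhythm to metabolic genes, and it has one of the widest daily ranges in liver. It was 338, 612, 484 and 467 in YAP1on tumors, 138, 189, 180 and 177 in day 6 tumors, 3027, 117 and 3751 in hbHep, and 3894, 3238 and 2648 in FAH liver. FAH livers and hbHep mice 1 and 3 were the 5 highest samples, the day 6 tumors lay below the YAP1on tumors without overlap, and hbHep mouse 2 was the lowest of all. Dbp was 2.79 higher on the log2 scale in FAH liver than in YAP1on tumors (SE 0.80, limma adjusted p = 0.00588) and 4.24 higher, 18.9-fold, than in day 6 tumors (SE 0.80, adjusted p = 0.000284). It was 2.69 higher in hbHep than in day 6 tumors (SE 0.80, adjusted p = 0.0122). The difference of day 6 from YAP1on tumors was -1.45 with an SE of 0.74 and an adjusted p of 0.181, and with an SE of 0.17 and an adjusted p of 2.15e-05 without hbHep mouse 2. That mouse also decided the comparison of hbHep with YAP1on tumors, 1.24 (SE 0.80, adjusted p = 0.197) with it and 2.86 (SE 0.21, adjusted p = 9.52e-08) without it. Only hbHep mice 1 and 3, both high in Dbp, then remain, so the smaller p is no separate evidence.

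Ciart (ENSMUSG00000038550, chr3:95878500-95882257), the repressor whose promoter holds 3 E-boxes, ran with Dbp at a lower level. It was 22.6, 16.9, 21.7 and 21.3 in YAP1on tumors, 9.23, 17.9, 8.10 and 10.4 in day 6 tumors, 113, 21.7 and 137 in hbHep, and 332, 218 and 217 in FAH liver. FAH livers were above all other samples, and hbHep mouse 2 lay among the YAP1on tumors. Ciart was 3.55 higher on the log2 scale in FAH liver than in YAP1on tumors (SE 0.47, limma adjusted p = 7.72e-06), 4.40 higher than in day 6 tumors (SE 0.47, adjusted p = 1.31e-06), and 1.72 higher in hbHep than in YAP1on tumors (SE 0.47, adjusted p = 0.00608). It was lower in hbHep than in FAH liver (log2 fold change -1.83, SE 0.50, adjusted p = 0.0104), a call that held without mouse 2 (-1.003, SE 0.31, adjusted p = 0.0233).

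In the order of group means, the FAH livers came first and the day 6 tumors last for Per2, Per3, Dbp and Ciart, and the day 6 tumors came first and the FAH livers last for Clock, Npas2 and Nr1d1. Among neighbours in that order few differed by limma: for Ciart FAH liver from hbHep and hbHep from YAP1on tumors, for Cry1 FAH liver from hbHep (adjusted p = 0.00534), for Per1 YAP1on tumors from hbHep, and for Npas2 and Nr1d1 hbHep from FAH liver. No neighbours differed for Clock, Per2, Per3, Nr1d2 or Dbp.

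**Figure D2:**
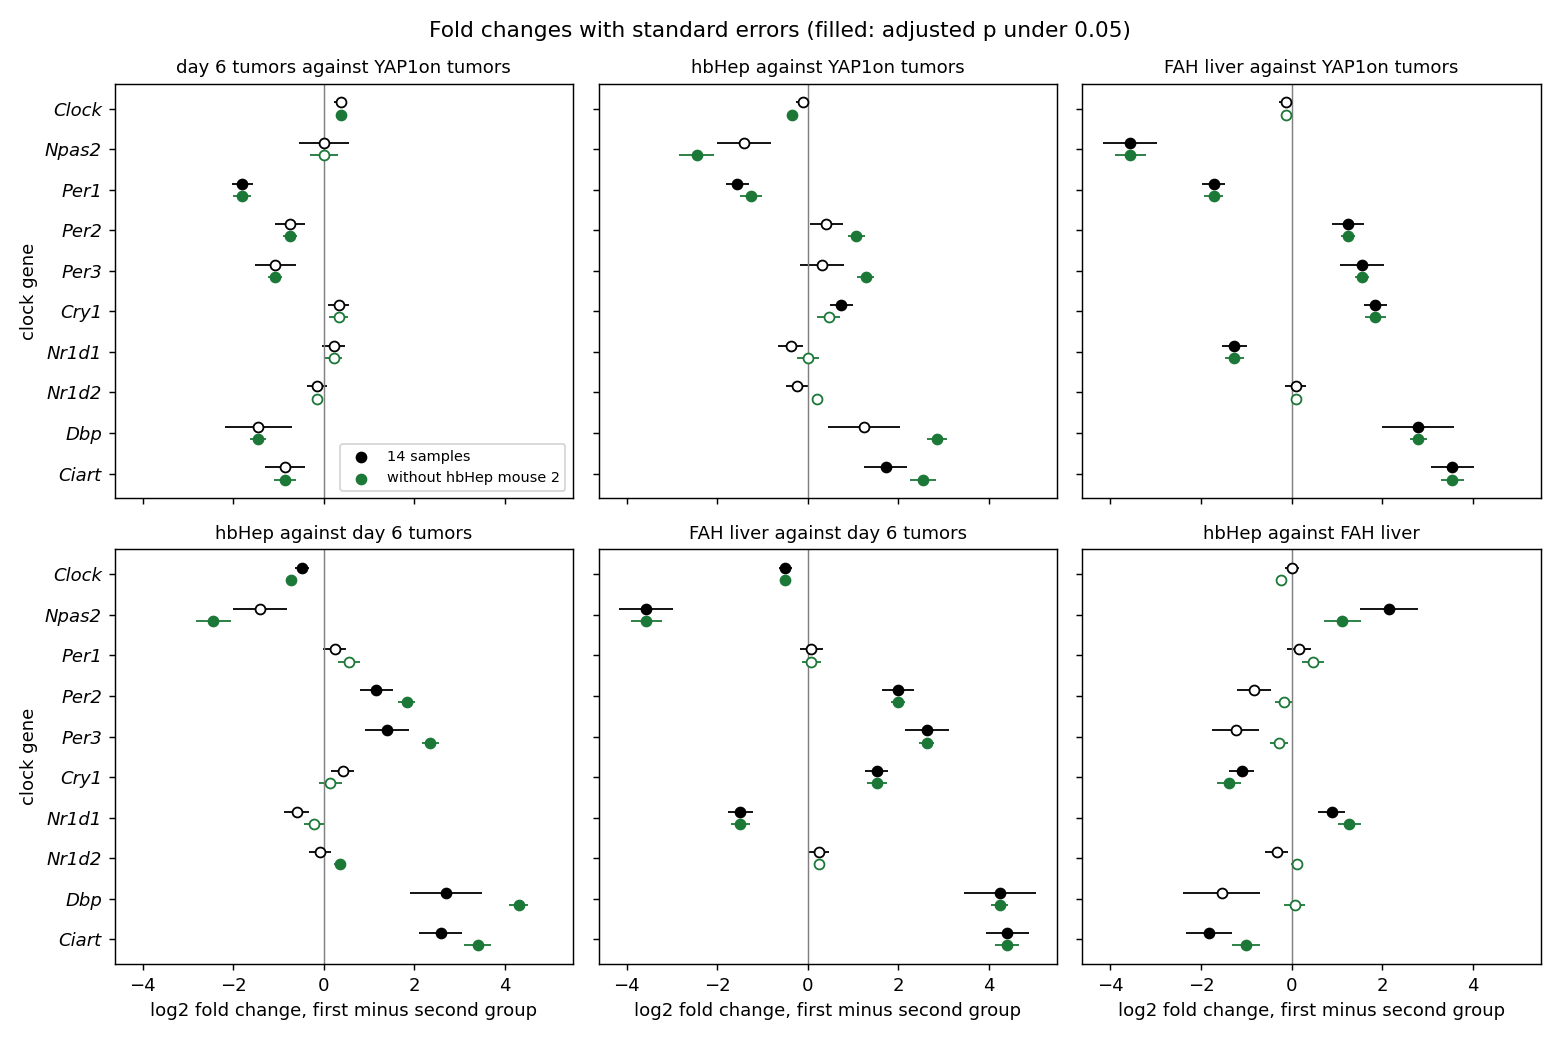
Log2 fold changes (horizontal axis, first group minus second) with standard errors for the 10 clock genes in 6 comparisons, in all 14 samples (black) and without hbHep mouse 2 (green), filled where the limma adjusted p is under 0.05. Standard errors shrink without the mouse for most genes, for Dbp in day 6 against YAP1on tumors from 0.74 to 0.17 at the same fold change of -1.45.

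Within groups, the clock genes spread most between the hbHep mice. Mouse 2, at day 114, had much Npas2 and Clock and little Dbp, Per2, Per3, Ciart, Nr1d1 and Nr1d2, and mice 1 and 3, at days 121 and 117, the reverse. Within hbHep, the highest mouse exceeded the lowest by at least 2-fold for 9 of the 10 genes, against 18.9% of all genes, and by at least 4-fold for 5 of 10, against 3.51%. Clock was the exception at 1.79-fold. In the YAP1on tumors 0 of 10 genes had such a 2-fold range (13.9% of all genes), and in FAH liver 0 of 10 (21.3%). In the day 6 tumors 1 of 10 did, Ciart (13.6%). None of the 10 reached 4-fold in YAP1on tumors, day 6 tumors or FAH liver (1.88%, 2.52% and 6.2% of all genes). Ranges in hbHep and FAH liver are between mice. Those of a tumor group are between 4 tumors of 1 mouse with 1 hour of death, so they hold no difference between animals or hours. All ranges are of abundance + 1. Npas2 in FAH liver, at 0.468 to 1.92, is near 0, where the added 1 narrows the range. The median log2 range of the 10 genes was 1.82 in hbHep, where the median of all genes was 0.49, and 0.39, 0.47 and 0.52 in YAP1on tumors, day 6 tumors and FAH liver, where the medians of all genes were 0.51, 0.40 and 0.51.

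**Figure D3:**
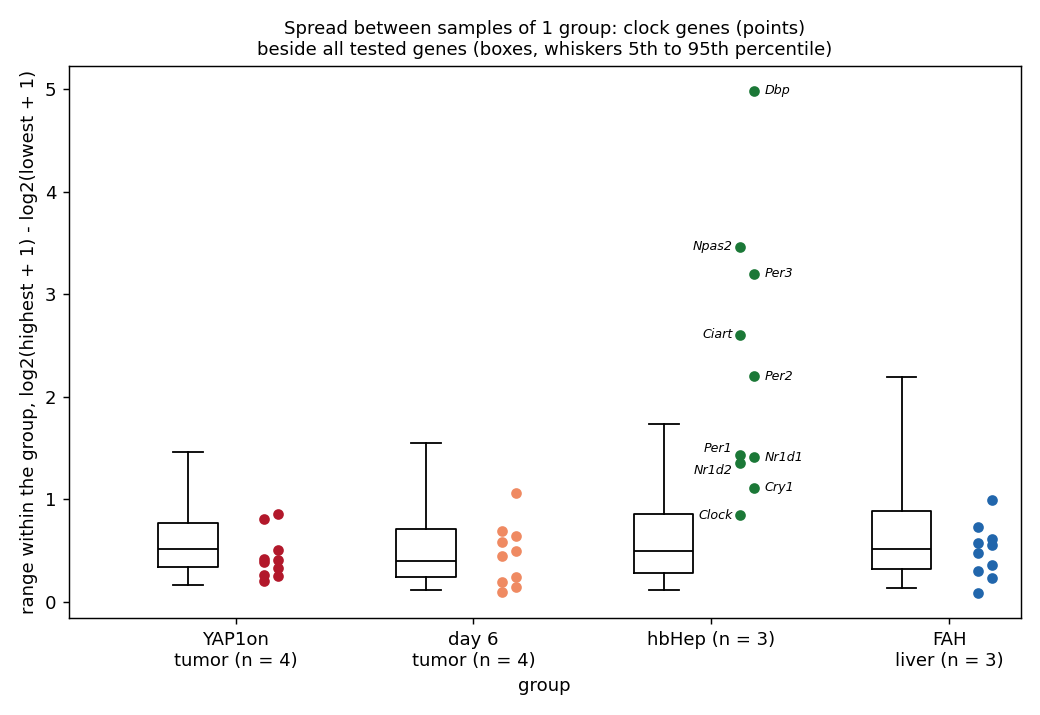
Range of log2(abundance + 1) between the samples of a group (vertical axis) for the 10 clock genes (points) beside all 17958 genes tested (boxes with quartiles, whiskers at the 5th and 95th percentiles). In hbHep the clock genes run from 0.84 for Clock to 4.99 for Dbp, and in the other groups all but Ciart at day 6 lie under 1. The tumors of each tumor group came from 1 mouse, so their ranges are between tumors and not between mice.

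Dbp had a 31.7-fold range in hbHep and ranked 21 of 17958 genes from the widest, so that 0.117% of genes ranged as widely. Npas2 ranged 11.02-fold (0.663% of genes as wide), Per3 9.20-fold (0.83%), Ciart 6.08-fold (1.43%) and Per2 4.60-fold (2.57%). Per1 ranged 2.69-fold (8.42%), Nr1d1 2.66-fold (8.69%), Nr1d2 2.55-fold (9.82%) and Cry1 2.16-fold (15.1%). The order from the widest was thus an output gene, an activator of low level and then repressors, with Clock last.

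Taken mouse by mouse, mice 1 and 3 were alike. Between mice 1 and 3, 1 of 10 genes differed past 2-fold, Per1 at 2.01-fold, against 7.71% of all genes, and 0 past 4-fold, against 1.0%. Between mice 1 and 2, 7 of 10 differed past 2-fold (11.8% of all genes) and 4 past 4-fold (2.04%). Between mice 2 and 3, 8 of 10 differed past 2-fold (10.2%) and 5 past 4-fold (2.07%). The mice are replicates of 1 group, so these are descriptions and no test was made between them.

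The technical libraries of each mouse agreed on this split. Dbp was 118 and 117 in the libraries of mouse 2, 2595 and 3459 in those of mouse 1, and 3541 and 3962 in those of mouse 3. Per3 was 220 and 234 in mouse 2, 1282 and 1438 in mouse 1, and 1930 and 2270 in mouse 3. Npas2 was 33.6 and 35.0 in mouse 2, against 2.29 and 2.11 in mouse 1. For these genes every library of mouse 2 lay outside the range of the other hbHep libraries.

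Levels in each hbHep mouse were then set beside the means of the other groups. Within 2-fold of the day 6 mean lay 5 of 10 clock genes in mouse 1, 9 in mouse 2 and 4 in mouse 3, against 75.2%, 74.2% and 76.3% of all genes. Within 2-fold of the FAH liver mean lay 7 of 10 in mouse 1, 4 in mouse 2 and 7 in mouse 3, against 77.1%, 76.2% and 78.9% of all genes. For the YAP1on mean the counts were 6, 4 and 5, against 68.6%, 69.3% and 68.2%. Inside the range of the 4 day 6 tumors lay 1 of 10 clock genes in each mouse, against 22.6%, 22.7% and 22.9% of all genes in mice 1, 2 and 3. The shares over all genes within 2-fold were nearly the same for the 3 mice, while those over the clock genes were not.

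Mouse 2 stood apart in other genes too. The carboxylesterase Ces3a was 296 in mouse 2, 11542 in mouse 1 and 15865 in mouse 3, and the major urinary protein gene Mup22, a member of a family whose reads are shared by estimation, was 732 against 12125 and 38902. The fetal liver gene Afp was 966 in mouse 1, 19026 in mouse 2 and 3571 in mouse 3. Of 12 fasting and feeding genes, 8 ranged at least 2-fold among the hbHep mice, against 18.9% of all genes. Those that rise with fasting did not share a direction: Igfbp1 was highest in mouse 2, at 7073, 31820 and 8444 in mice 1, 2 and 3, while Pck1, at 17922, 10929 and 27753, and Cpt1a, at 3720, 2271 and 4022, were lowest there. The metallothionein genes Mt1 and Mt2 were also highest in mouse 2, Mt1 at 34587 against 13279 and 7344. On the first principal component of all genes, which held 60.7% of the variance, mouse 2 lay at 61.9, beside 63.0 and 71.9 for mice 1 and 3, and far from day 6 tumors at -65.5 to -55.8. The summed hepatocyte markers were 560732, 394632 and 613400 in mice 1, 2 and 3. The part of feeding, stress, day or cell makeup in the clock gene levels of mouse 2 was not tested, nor that of the hour of sampling, which the labels do not give.

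Activator and output were also set against each other within each sample. The log2 ratio of Clock to Dbp was 1.35 to 2.01 in the YAP1on tumors, 3.35 to 3.87 in the day 6 tumors, -1.22, 4.03 and -1.80 in hbHep mice 1, 2 and 3, and -1.50 to -0.97 in FAH liver. With Arntl in place of Clock it was -0.39 to 0.49 in the YAP1on tumors, 2.10 to 2.72 in the day 6 tumors, -4.97, 3.07 and -5.23 in hbHep, and -4.86 to -4.58 in FAH liver. Within each of the other 3 groups the ratio of Arntl to Dbp kept to a span of under 1, while the hbHep mice spanned both extremes. Of those 3 groups only FAH liver held more than 1 mouse. Over the 14 samples Clock ranged only from 1076 to 2032 while Dbp ranged from 117 to 3894, so its ratio to Dbp mostly follows Dbp, and the ratio with Arntl follows both genes. In FAH liver against day 6 tumors Arntl, Npas2 and Clock were lower and Dbp, Per2, Per3 and Ciart higher, and all 7 passed. The arms were not fully opposed in every comparison. From YAP1on to day 6 tumors Npas2 had means of 21.3 and 21.5, and neither Clock nor Arntl passed in the 14 samples. Both were still higher in every day 6 tumor than in every YAP1on tumor, and Clock passed without hbHep mouse 2. Of the 10 other core clock and feedback genes tested, Arntl among them, 1 was called higher at day 6 without that mouse, against 0 in the 14 samples. Per1, Per2, Per3 and Dbp were lower at day 6 without overlap. Cry1 was higher without overlap, and Ciart, Nr1d1 and Nr1d2 overlapped. In FAH liver against YAP1on tumors Clock did not pass. Per1, Cry1 and Nr1d1 did not keep to this division: Per1 was highest in YAP1on tumors, Cry1 was highest in mouse 2 among the hbHep mice, and Nr1d1 was lowest in FAH liver. The log2 ratio of Clock to Nr1d1 was 1.08 to 1.58 in FAH liver and 1.64 in hbHep mouse 2, above the -0.61 to 0.52 of the other 10 samples.

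**Figure D4:**
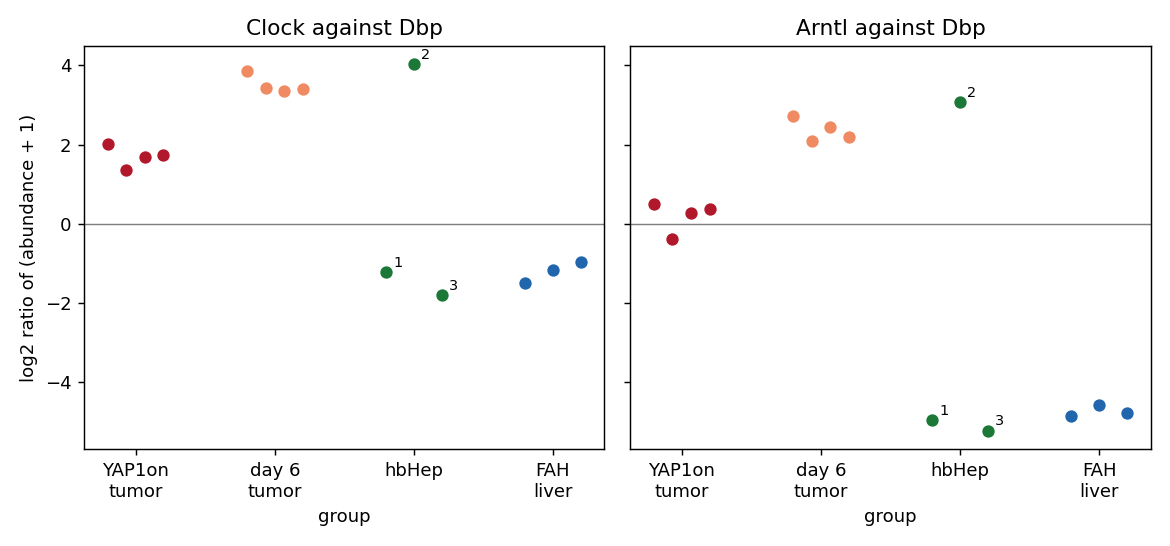
Log2 ratio of Clock to Dbp (left) and of Arntl to Dbp (right) in each of 14 samples by group, hbHep mice numbered. hbHep mice 1 and 3 lie with FAH liver below 0, and mouse 2 lies at 4.03 and 3.07, above all other samples.

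Among the other core clock and feedback genes, several also set mouse 2 apart from mice 1 and 3. Of the 11 listed, Rorb was too low to test. Arntl, which encodes BMAL1, was 474, 465, 588 and 609 in YAP1on tumors, 912, 812, 993 and 813 in day 6 tumors, 95.4, 997 and 98.7 in hbHep, and 133, 134 and 95.3 in FAH liver. Mouse 2 had the highest Arntl of all 14 samples and mice 1 and 3 were within the FAH range. Arntl was lower in FAH liver than in YAP1on tumors (log2 fold change -2.14, SE 0.56, limma adjusted p = 0.00309) and than in day 6 tumors (-2.87, SE 0.56, adjusted p = 0.00037). Tef, a relative of Dbp, fell from YAP1on to day 6 tumors (-0.86, SE 0.30, adjusted p = 0.0488) and was 2.16 higher in FAH liver than in day 6 tumors (SE 0.32, adjusted p = 3.6e-05), and it was 1058, 320 and 1266 in hbHep mice 1, 2 and 3.

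A further 3 genes of that list were lowest in mouse 2 as Dbp was: Bhlhe40 at 1172, 529 and 1586 in hbHep mice 1, 2 and 3, Bhlhe41 at 16.2, 4.91 and 28.6, and Hlf at 534, 344 and 796. Cry2, the other CRY repressor, was 1.17 higher on the log2 scale in FAH liver than in YAP1on tumors (SE 0.16, limma adjusted p = 1.36e-05) and was 940, 960 and 1253 in the hbHep mice. Nfil3, a repressor at D-boxes, was 366, 573 and 386 there, highest in mouse 2, and lower in hbHep than in FAH liver (-1.38, SE 0.17, adjusted p = 1.39e-05). In the order day 6 against YAP1on tumors, hbHep against YAP1on tumors, FAH liver against YAP1on tumors, hbHep against day 6 tumors, FAH liver against day 6 tumors and hbHep against FAH liver, 1, 6, 7, 7, 6 and 4 of the 10 tested genes passed, where 23.7%, 55.2%, 68.0%, 45.8%, 62.6% and 37.0% of all genes did. By range, 5 of the 10 differed at least 2-fold among the hbHep mice, against 18.9% of all genes.

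**Figure D5:**
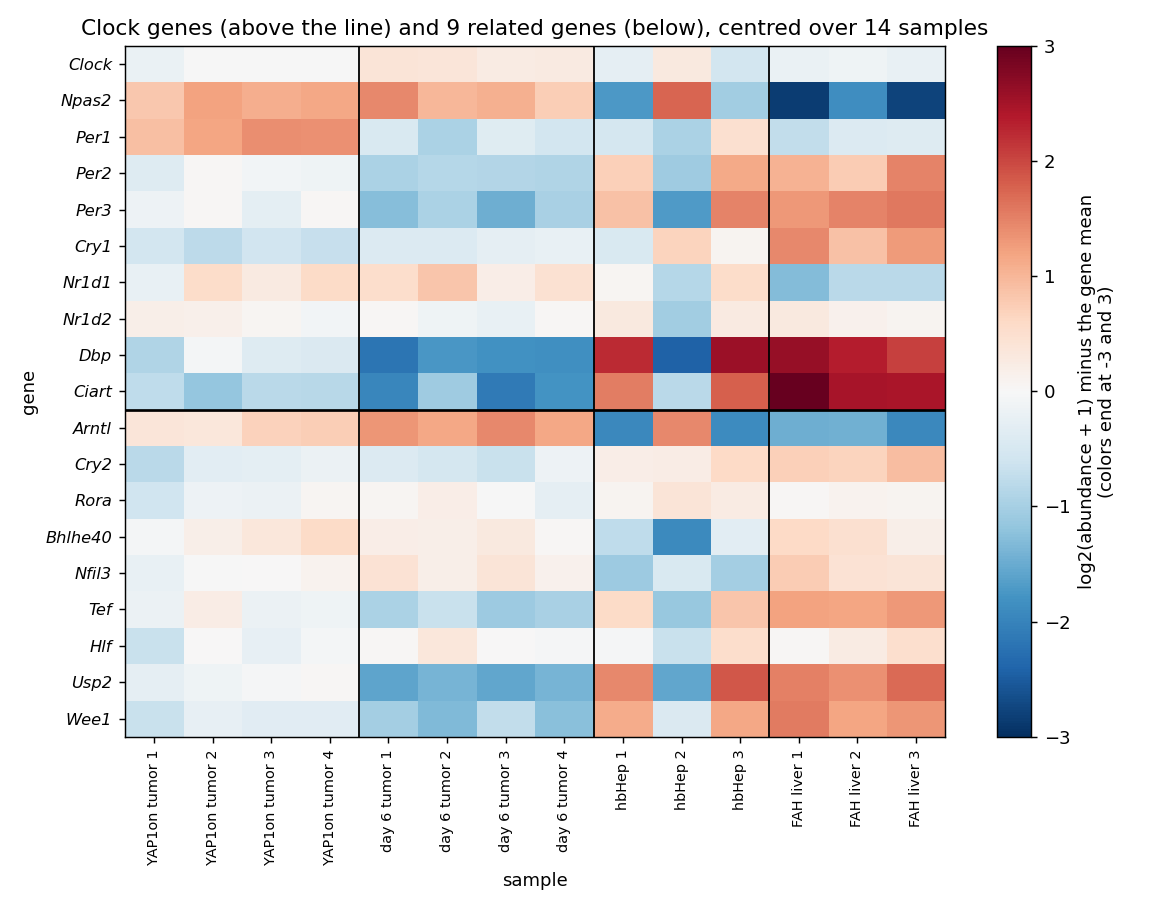
log2(abundance + 1) minus the mean of each gene over 14 samples (color, ending at -3 and 3) for the 10 clock genes above the line and 9 related genes below it. In hbHep mouse 2 Npas2 and Arntl are red and Per2, Per3, Dbp, Tef and Usp2 blue, the reverse of mice 1 and 3, while Cry2 is alike in the 3 mice. Clock differs in the direction of Npas2 but only in pale colors, with a log2 range of 0.84 in hbHep.

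The kinases, ligases and partners that set the pace of the clock through its proteins did not share the split of the hbHep mice: 0 of 16 ranged at least 2-fold there (18.9% of all genes), with a median log2 range of 0.27. In the same order of comparisons, 1, 8, 12, 7, 12 and 6 of the 16 passed, against the same 23.7%, 55.2%, 68.0%, 45.8%, 62.6% and 37.0% of all genes, so most of these counts are near the background. Nampt, the enzyme of NAD salvage whose transcript is a clock target, was 2.16 higher on the log2 scale in FAH liver than in day 6 tumors (SE 0.16, limma adjusted p = 3.79e-08), and Csnk1d, a kinase of PER proteins, was lower there (-0.88, SE 0.11, adjusted p = 6.32e-06). Of 20 liver genes listed as clock outputs, 11, 15, 18, 14, 17 and 11 passed, to be read against those same shares of all genes, and 9 ranged at least 2-fold in hbHep, against 18.9%. Usp2, a deubiquitinase, was 304 to 378 in the YAP1on tumors, 122 to 138 in the day 6 tumors, 999, 124 and 1335 in hbHep and 945 to 1202 in FAH liver. Wee1, a cell cycle kinase with E-box control, was 1193, 410 and 1244 in hbHep and 2.44 higher on the log2 scale in FAH liver than in day 6 tumors (SE 0.29, adjusted p = 3.95e-06). Tfrc, the transferrin receptor, went the other way in hbHep, at 184, 780.5 and 281. In FAH liver against day 6 tumors 13 of the 20 outputs were higher (30.9% of all genes) and 4 lower (31.8%). The largest log2 differences upward were 6.47 for Elovl3 and 5.79 for Cyp2b10. Downward they were -3.59 for Avpr1a and -3.37 for Cdkn1a. Several of these outputs are hepatocyte enzymes, such as Upp2 and Gys2, which rose from YAP1on to day 6 tumors (2.41 and 1.046 on the log2 scale, limma adjusted p = 1.87e-05 and 0.000273) while Dbp was lower there.

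Of the 9 immediate early genes listed, 0 ranged at least 2-fold in hbHep (18.9% of all genes), and 2, 5, 9, 5, 7 and 7 passed in the order of comparisons above, where 23.7%, 55.2%, 68.0%, 45.8%, 62.6% and 37.0% of all genes passed. Of the 10 glucocorticoid response genes, 5, 5, 7, 6, 7 and 6 passed against the same shares, and 4 ranged at least 2-fold in hbHep. Several of these counts lie at the background.

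The 5 genes most like Dbp over the 14 samples, by the root mean square difference of log2(abundance + 1) after centring each gene on its mean, were Usp2 (0.64), Ciart (0.67), Per3 (0.82), Cox6b2 (0.93) and Tmigd1 (0.98). Ciart and Per3 are among the 10 clock genes, and Usp2 is on the list of outputs. Tmigd1 was 5.78 or less in every tumor and hbHep mouse and 13.7 to 31.9 in FAH liver. It thus passed the filter only through FAH liver, and its likeness elsewhere rests on values near 0. The 5 most like Npas2 were Mpzl1 (0.52), Srrm4 (0.58), AC139040.1 (0.61), Clcf1 (0.61) and a gene without a symbol, ENSMUSG00000097629, with values identical to those of Clcf1. In hbHep mice 1, 2 and 3 Mpzl1 was 39.6, 159 and 65.6, and Clcf1 25.6, 145 and 56.5. These measures describe likeness over 14 samples of 4 groups and carry no test.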

How the data were processed

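RNA was extracted from fresh or frozen liver tissue with Trizol and chloroform, per the labels' protocols. The authors deposited 1 signal value per gene and library, in a unit taken to be scaled reads per base. The submitters' processing notes name kallisto 0.45.0, sleuth and bcl2fastq, and the build GRCm38.p6. Read counts could not be recovered, so no count model was used and the depth is unknown. By the step between low values, 1 read was worth 0.409 to 1.14 times its worth in the first hbHep library, lowest in YAP1on tumors. Median-of-ratios factors of 0.9585 to 1.095 put the 17 libraries on 1 scale, and technical pairs were averaged, which left 14 samples. Genes with an abundance of at least 10 in at least 3 samples were tested on log2(abundance + 1) with limma 3.58.1 in R 4.3.3 (eBayes with a trend, 1 model of 4 groups), with Benjamini-Hochberg adjustment over all genes at a threshold of 0.05. The script was tested on simulated data. For each ATAC library the authors deposited open intervals on mm10. For these the submitters' processing notes name BWA, cutadapt, Picard and SAMtools but no program that called intervals. The score in the fifth column of the deposited YapOn list and the entries there in the other lists were not used. Motifs were searched in RefSeq promoters.

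The genes, the lists and the tests were chosen with earlier results of these data known. Named are all 10 clock genes and, of the other lists, genes that passed, at most 6 per list and comparison. The plan took the largest fold changes first, but the genes named were not always those. Arntl, Tef, Cry2, Nfil3, Bhlhe40, Bhlhe41, Hlf, Usp2, Wee1, Tfrc, Igfbp1, Pck1, Cpt1a, Mt1, Mt2, Ces3a, Mup22 and Afp are also given by their levels in the hbHep mice, chosen after their values were seen. Alternatives were other scalings, pseudocounts and filters, only the 2 groups compared, no trend, 1 technical library, the replicate number as a block and each sample left out.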

Additional observations from a re-analysis of the deposited data

Results flagged for a closer look

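Clock in YAP1on tumor 1 was 1361, lower than the 1556 to 1563 of the other 3 tumors of that group. The gap to the nearest tumor was 0.969 of the range of the group, above the critical value for 4 samples. This was the only such gap among 20 combinations of clock gene and tumor group, and chance gives about 1 in 20. The 3 samples each of hbHep and FAH liver are too few for this check.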

How the results depend on the processing

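Over the alternatives, 1424 fold changes of single clock genes kept their side of the threshold, 33 lost a call, 30 gained one and 1 reversed. A reversal was counted only where a call was made with or without the change. Turns of direction with no call are thus among the 1424. The 1 that reversed was Nr1d2 in hbHep against day 6 tumors, at 0.35 without hbHep mouse 2 and at -0.32 without mouse 1. These were its highest and lowest values with 1 sample left out. For FAH liver against either tumor group 8 of 10 genes passed when any 1 sample was left out. The number passing changed with hbHep in the other comparisons. For day 6 against YAP1on tumors it was 6 with only the 2 groups in the model, and 1 to 6 with 1 sample left out (6 without hbHep mouse 2, 3 without mouse 3). For hbHep against YAP1on tumors it was 5 with quantile normalization and 2 to 7 with 1 sample left out. For hbHep against day 6 tumors it was 2 with only the 2 groups and 2 to 7 with 1 sample left out (2 without mouse 1 or mouse 3, 7 without mouse 2). For hbHep against FAH liver it was 2 with an abundance filter of 100, which drops Npas2 and Cry1, and 2 to 6 with 1 sample left out (2 without FAH liver 1). With only those 2 groups limma called 0 of the 10 genes (lowest adjusted p 0.0612; 4 with an unadjusted p under 0.05), and 4057 of all genes in place of 6646. Leaving out hbHep mouse 2 takes its spread out of every comparison; other causes were not tested.

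The replicate numbers are not shared animals. Samples of the same number correlated at -0.23 to 0.19 in their deviations from group means, and in 0 of 6 pairs of groups did all numbers pass 0.1. With the number as a replicate block 59 of 60 results kept their call and 1 lost it, Cry1 in hbHep against YAP1on tumors (adjusted p = 0.052). Groups of 3 or 4 samples, and 1 mouse per tumor group, limit what these comparisons can resolve.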
